A study of Mus musculus with 12 samples.

Results

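Ribosomal protein genes encode the protein parts of the cytosolic ribosome, and they were followed here through the mouse testis after busulfan and gut microbiota transfer. Rows were taken where the mouse symbol, found through the NCBI Gene ID, begins with Rpl or Rps and a digit, or is Rplp0, Rplp1, Rplp2 or Rpsa. Of the 22221 rows, 101 matched. From these, 10 kinase rows, such as the Rps6ka and Rps6kb genes, and 3 pseudogene symbols were left out. The remaining 88 members are 43 large subunit genes, 3 genes of the acidic stalk, 31 small subunit genes, 10 paralogs or retrocopies, and Rps19bp1, which binds RPS19 and is not a ribosomal protein. The first 3 classes, 77 genes, are called the core below.

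All 12 libraries came from testes of ICR mice, an outbred stock, in 4 groups of 3. The Con group had no treatment. The 9 other libraries came from mice that were dosed once, when 3 weeks old, with busulfan, which alkylates DNA and is toxic to proliferating germ cells. After it the Sa group received saline, the IMC group gut microbiota from ddH2O-treated donors, and the IMA10 group gut microbiota from donors given alginate oligosaccharide (written Aligina Oligosaccharide in the labels) at 10 mg/kg body weight. Transfer of microbiota lasted 2 weeks, and the testes were collected after 3 more. The age of the Con mice is not given and their columns carry another name prefix, so a batch and the absence of treatment cannot be told apart. Whether the libraries of a group are separate animals is not stated in the labels. If they are not, p-values here reflect variation between samples of a group that may be technical. A culture step is mentioned without details.

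Values are FPKM, fragments scaled by transcript length and library total, with unknown depth. The FPKM of a library summed to 569055 to 576093 in Con and to 476127 to 519355 after busulfan. Summed marker genes of late germ cells were lower with busulfan. Those of Sertoli, Leydig, endothelial and peritubular myoid cells and of macrophages were higher. The 4 adipocyte markers were lower, with sums of 11.64 to 12.92 FPKM in Con and 1.43 to 4.09 after busulfan. The 12 elongating spermatid markers summed to 46330 to 48860 FPKM in Con and to 94.24 to 5018 after it, and 11 Sertoli cell markers to 422.8 to 504.1 and to 2363 to 13980. IMA10 replicate 3 stood apart, with 6179 FPKM over 10 spermatocyte markers against 220.8 and 735 in the other IMA10 libraries, and 2363 FPKM over the Sertoli markers against 10890 and 13980. In whole tissue, fewer cells of a type and less RNA per cell cannot be told apart, and the part of these shifts in the results below was not tested.

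The ribosome reads messenger RNA with a small subunit and joins amino acids with a large subunit, and each subunit holds a fixed set of proteins next to its ribosomal RNA. The messages of these proteins usually start with a run of pyrimidines, the TOP motif, through which growth signals set their translation together. Most ribosomal proteins have a single active gene in mammals, but a few have paralogs, and some of those are used mainly in the testis. The X chromosome is silenced in male germ cells during meiosis. Autosomal copies such as Rpl10l and Rpl39l, whose parents Rpl10 and Rpl39 are X-linked, are known to be active in those cells.

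The Rpl39 pair had the largest difference in paralog share among the 7 pairs compared here, so its coding sequences are shown. Both have 156 bases from start to stop codon in the GENCODE M21 transcripts (build GRCm38), Rpl39 on chromosome X and Rpl39l on chromosome 16. Capitals mark the 23 positions at which the sequences differ, which leaves 85.3% of bases identical:
Rpl39: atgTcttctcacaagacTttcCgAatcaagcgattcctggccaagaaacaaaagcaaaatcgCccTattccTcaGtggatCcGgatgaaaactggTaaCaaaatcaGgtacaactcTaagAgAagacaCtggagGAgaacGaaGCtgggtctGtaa
Rpl39l: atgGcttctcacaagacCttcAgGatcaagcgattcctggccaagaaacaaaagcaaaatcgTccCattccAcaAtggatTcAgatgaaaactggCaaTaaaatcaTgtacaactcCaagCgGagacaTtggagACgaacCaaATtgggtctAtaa
The longest stretch without a difference was 38 bases. Among the 7 pairs of paralog and parent compared below, identity over aligned coding bases ranged from 55.2% for Rpl7l1 and Rpl7 to 87.9% for Rpl36al and Rpl36a. Rpl10l, a copy without introns, matched Rpl10 at 547 of 645 bases.

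Near-identical copies can affect how a row reads. The longest complete coding sequence annotated for each gene was cut into words of 50 bases. Words that also occur in a GENCODE M21 transcript of another gene were counted, whatever the type of that gene. Of the 77 core genes 66 shared more than 50% of their words in this way, with a median of 90.3%. The paralogs Rpl39l and Rpl3l shared 0% and Rpl10l 12.4%, while Rpl39 shared 84.1% and Rpl10, Rpl36a and Rpl36al 100%. Among the core genes that shared few words were Rpl41 at 4.35%, Rps3 8.05%, Rpl8 8.69% and Rpl4 20.2%. How the authors treated reads that fit several genes is not given in the sources used here, so levels of the other core genes are uncertain. The Rpl41 sequence used had 141 bases, and its low share holds for that form only, since any shorter form was not examined.

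Some rows were listed low or varied between replicates. Rps6, a small subunit protein phosphorylated after growth signals, was listed at only 4.3 to 5.51 FPKM in Con, while the left-out pseudogene row Rps6-ps4, which holds 100% of its words, stood at 412.75 to 415.02. Rpl34 was at 10.3 to 12.6 FPKM beside Rpl34-ps1 at 257.85 to 277.92. Rps18 shared 87.8% of its words and was listed at 0 to 0.78 FPKM in all 12 libraries. Replicates of Rpl26 disagreed by more than 2-fold in Con, with 5.28, 166.64 and 184.72 FPKM, and so did those of Rps28, Rpl10 and Rps7. The median share of words was 88.9% for the 16 core genes under 50 FPKM in Con and 91.3% for the others. The part of shared sequence in low or erratic values was not tested, and no direction is drawn from these rows.

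Upstream sequence was compared for the same pair. Shown are the 100 bases before the RefSeq start (build GRCm38.p6), with capitals for matches to CGGAAG (the core of ETS factor sites), ATGGCG (part of the YY1 motif) or TATAAA (the sequence of the TATA box) on either strand. Rpl10l, the retrocopy, is added because its level moved in the same libraries as that of Rpl39l:
Rpl39, chrX:37085223-37085322, minus strand: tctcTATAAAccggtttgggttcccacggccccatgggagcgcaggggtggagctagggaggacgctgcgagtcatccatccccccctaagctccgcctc
Rpl39l, chr16:10170128-10170227, plus strand: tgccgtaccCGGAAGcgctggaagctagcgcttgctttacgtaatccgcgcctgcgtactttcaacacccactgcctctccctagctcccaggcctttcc
Rpl10l, chr12:66284402-66284501, minus strand: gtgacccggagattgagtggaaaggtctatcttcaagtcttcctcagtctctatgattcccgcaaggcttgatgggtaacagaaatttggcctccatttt
The Rpl39l stretch held CGGAAG, that of Rpl39 held TATAAA, and that of Rpl10l held none of the 3. Of the core genes 57 had an entry in the RefSeq promoter table, with 67 promoters of 250 bases before to 50 after the start. CGGAAG or its complement occurred in 62.7% of these 67 and in 16.9% of all 32851 promoters. ATGGCG occurred in 28.4% and 8.93%, and TATAAA in 8.96% and 13.6%. A run of at least 8 pyrimidines within 10 bases before to 20 after the start was present in 34.3% of the core promoters and 11.2% of all. A match describes letters only and is not a tested site.

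Untreated testis gave a wide range of levels. Rpl41, the smallest large subunit protein, was highest with 1743, 1639 and 1570 FPKM in Con, followed by Rps27 (834.7 ± 45.6, SD, n = 3), Rpl32 (736.6 ± 48.1), the stalk base Rplp0 (715.6 ± 19.6) and Rpl35 (623 ± 23.2). The 3 Con libraries had a median of 202, 205 and 205 FPKM over the core. After busulfan the core median was 257 to 327 FPKM, above every Con library. In Sa the order was Rpl41 (1130 ± 142), Rplp0 (838.3 ± 66.4), Rpl23a (742.6 ± 45.8), Rps27 (708.9 ± 74.9) and Rpl32 (670.4 ± 90.5). All members together made up 3.5 to 3.64% of summed FPKM in Con and 4.77 to 5.78% after busulfan, without overlap, IMA10 replicate 3 included (4.94%).

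Sa was compared with Con to see how ribosomal protein messages stand after busulfan and saline. Of the 84 members that reached 1 FPKM in at least 3 libraries, 46 were higher and 3 lower (limma on log2(FPKM + 1), adjusted p under 0.05). Over all 15472 genes tested, 52.0% were higher and 19.2% lower, so the members' share of rises was near the background. Their median log2 difference was 0.46, against 0.60 over all genes, and the middle 50% of members lay between -0.02 and 0.85, against -0.73 and 1.55. The members thus moved within a narrower band than genes in general.

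The count of rises rested on the scaling. Median-of-ratios scaling, which sets the typical gene to no change, moved the median of all genes from 0.60 to -0.02. It left 9 members higher and 36 lower, against 37.7% and 39.1% of all genes, with a member median of -0.32. Quantile normalization gave 58 higher and 4 lower, against 36.8% and 29.2% of all genes, with a median of 0.84 against 0.19 over all genes. Relative to the median of all genes the members as a set were thus 0.15 lower, 0.30 lower or 0.65 higher on the log2 scale, and no direction of the whole set is claimed. Differences between members within a library do not depend on a common factor.

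**Figure D1:**
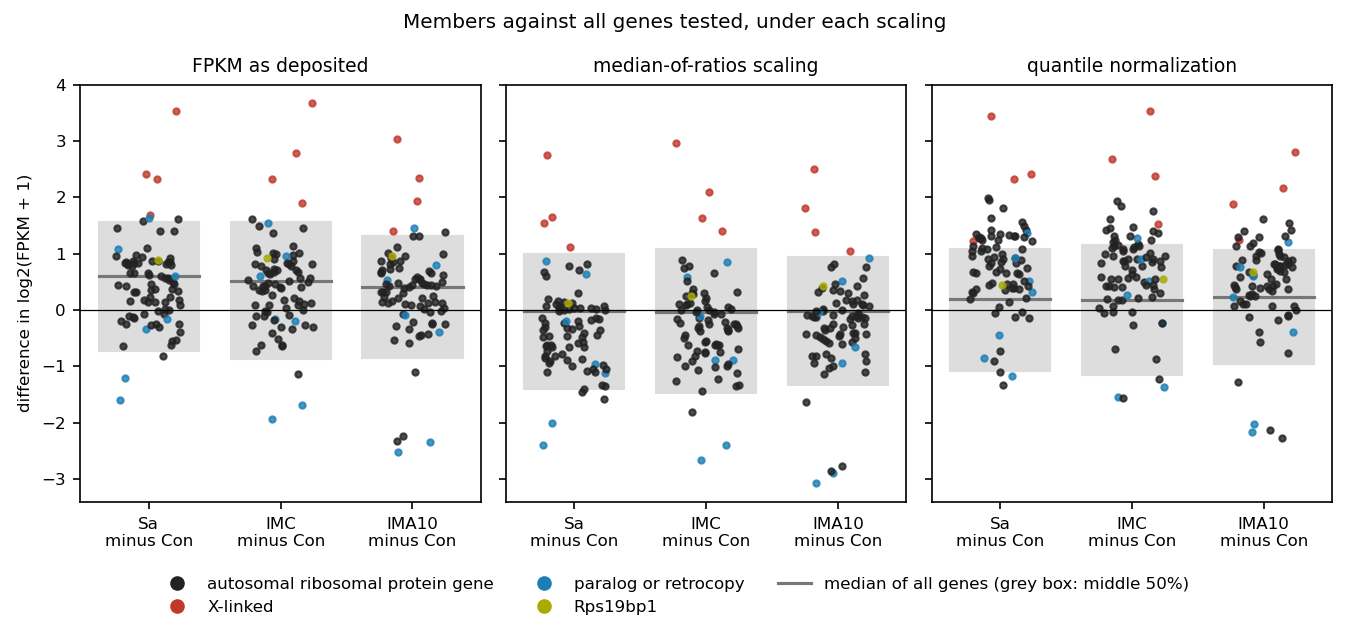
Differences in log2(FPKM + 1) between each busulfan group and Con (y axis) for the tested members, as points, under 3 scalings; grey boxes span the middle 50% of all 15472 genes and the grey line is their median. Rps4x, Rpl39 and Rpl36a (red) lie above 1.3 in every panel and Rpl39l and Rpl10l (blue) are negative in every panel, while the autosomal genes shift with the scaling.

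The subunits were also counted apart, with no test between them. Of the 46 large subunit and stalk genes tested 24 were higher and 1 lower in Sa than in Con, with a median of 0.43, and of 30 small subunit genes 18 were higher and 2 lower, with a median of 0.52, beside 52.0% and 19.2% of all genes. Median-of-ratios scaling gave 4 higher and 21 lower for the first and 3 higher and 12 lower for the second. With that scaling 37.7% of all genes were higher and 39.1% lower, so these shares of falls were near the background. Among the stalk genes, which recruit translation factors, Rplp1 and Rplp2 passed and Rplp0 did not. Median-of-ratios scaling ended the calls of Rplp1 and Rplp2 (limma adjusted p = 0.22 and 0.77). Rplp0 was called lower with that scaling (-0.58, adjusted p = 0.00669) and higher with quantile normalization. Of the 7 paralogs and retrocopies tested 3 were higher and none lower, with a median of -0.16. Median-of-ratios scaling gave 2 higher and 3 lower, beside the same 37.7% and 39.1% of all genes. Rps19bp1 went from 12.1 ± 0.68 to 23.3 ± 2.45 FPKM (SD, n = 3), a log2 difference of 0.89 ± 0.15 (SE, limma adjusted p = 0.000486), a call that median-of-ratios scaling ended (0.13, adjusted p = 0.385).

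Of the X-linked core genes, 3 had the largest differences. Rps4x, the X-linked form of small subunit protein eS4, was at 18, 16.6 and 12 FPKM in Con, 149, 206 and 217 in Sa, 186, 188 and 249 in IMC, and 223, 211 and 49.3 in IMA10. Every busulfan library lay above every Con library, and IMA10 replicate 3 was the lowest of the busulfan libraries. The log2 difference was 3.53 ± 0.49 in Sa, 3.67 ± 0.49 in IMC and 3.03 ± 0.49 in IMA10 (limma adjusted p = 0.000358, 0.000308 and 0.000961), in 3 comparisons that share the Con libraries.

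Rpl39, a short protein at the exit of the peptide tunnel, was at 21, 15.7 and 15.9 FPKM in Con, 97.6, 99.2 and 94.7 in Sa, 104, 119 and 163 in IMC, and 129, 141 and 42.6 in IMA10. The groups did not overlap with Con, and IMA10 replicate 3 was again the lowest treated library. The differences were 2.42 ± 0.39, 2.80 ± 0.39 and 2.34 ± 0.39 (limma adjusted p = 0.000461, 0.000308 and 0.000992). Rpl36a was at 30.8, 31.4 and 25.6 FPKM in Con and between 126.8 and 177.6 in the busulfan libraries other than IMA10 replicate 3, which had 63.5. Its differences were 2.33 ± 0.31, 2.33 ± 0.31 and 1.93 ± 0.31 (limma adjusted p = 0.000351, 0.000308 and 0.000957). These 3 genes kept their direction and their call under each of the alternatives.

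Rpl10, the X-linked protein that completes the large subunit near its catalytic centre, could not be read. It was listed at 0, 11.6 and 5.81 FPKM in Con and between 5.61 and 47.5 after busulfan, with overlap in every group. Its log2 difference of 1.69 ± 1.06 in Sa did not pass (limma adjusted p = 0.169), nor did 1.90 in IMC and 1.40 in IMA10 (adjusted p = 0.124 and 0.251).

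Of the 72 autosomal core genes tested, 39 were higher and 3 lower in Sa than in Con, with a median of 0.43, against 52.0% and 19.2% of all genes. For all 76 core genes tested, median-of-ratios scaling gave 7 higher and 33 lower, against 37.7% and 39.1% of all genes. The largest autosomal difference was that of Rpl10a, at 1.62, below the values of Rps4x, Rpl39 and Rpl36a. Over the 667 X-linked genes tested the median was 1.17, and 30.7% exceeded a log2 difference of 2, against 16.5% of all genes. With FPKM as deposited, a difference over 2 was thus more frequent among X-linked genes than among all genes. No share was computed for a difference as large as that of Rps4x. Relative to the median log2 level of the core in the same library, Rps4x lay at -3.97 to -3.47 in Con and at -1.18 to -0.31 after busulfan, with IMA10 replicate 3 at -2.52. Rpl39 went from between -3.63 and -3.26 to between -1.78 and -0.92 (IMA10 replicate 3 at -2.73), and Rpl36a from between -2.93 and -2.67 to between -1.2 and -0.8 (IMA10 replicate 3 at -2.16). None of these ranges overlapped.

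**Figure D2:**
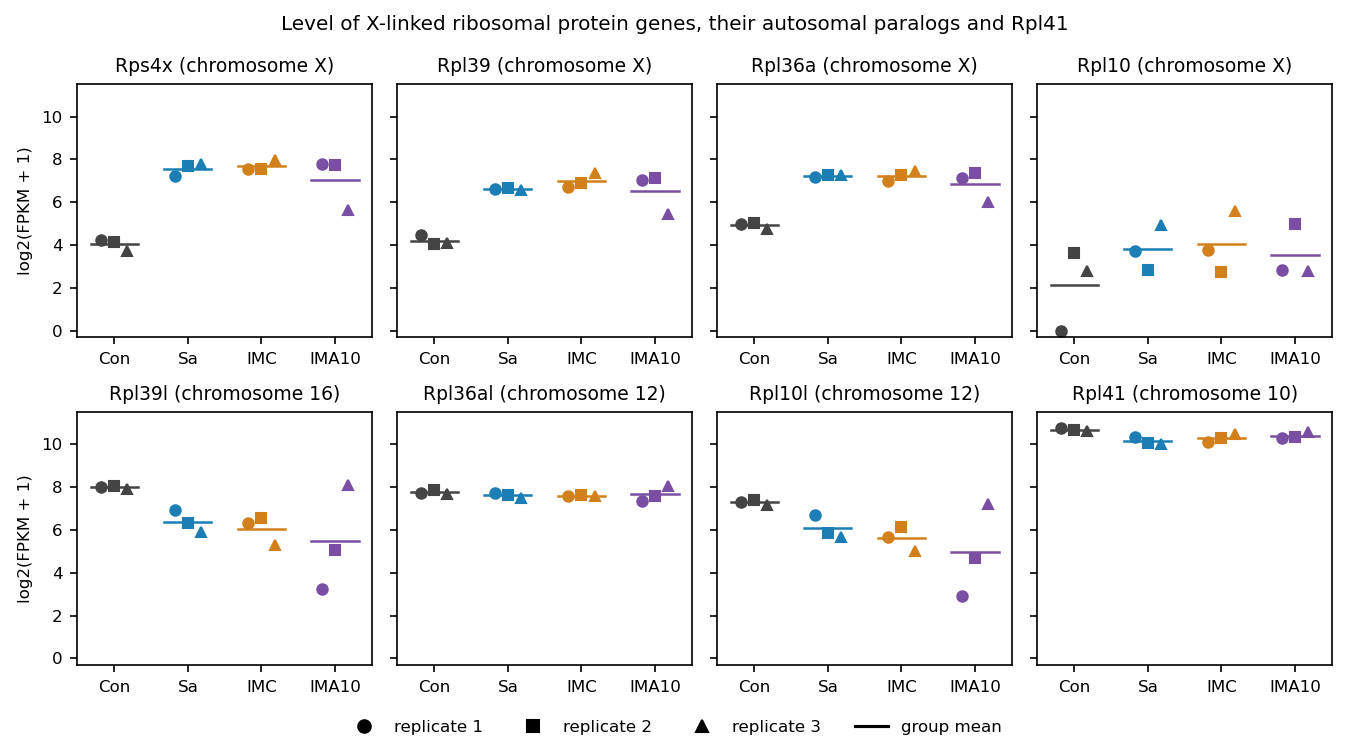
Level of 8 members on a log2(FPKM + 1) axis in each library, grouped by treatment; symbols mark the replicate and bars the group mean. Rps4x, Rpl39 and Rpl36a are high in all busulfan libraries and lowest among them in IMA10 replicate 3, whereas Rpl39l and Rpl10l of that library sit at their Con levels.

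The testis paralogs Rpl39l and Rpl10l were lower in 8 of 9 busulfan libraries than in any Con library. Rpl39l was at 259, 261 and 240 FPKM in Con, 122, 80 and 59.1 in Sa, 78.9, 92.6 and 38 in IMC, and 8.55, 32.6 and 275 in IMA10. All busulfan libraries but IMA10 replicate 3 lay below Con, and that library lay above it. The log2 difference was -1.59 ± 0.95 in Sa and -1.94 ± 0.95 in IMC, which did not pass (limma adjusted p = 0.148 and 0.0843), and Rpl39l fell by 2.51 ± 0.95 in IMA10 (adjusted p = 0.0359). Quantile normalization ended the IMA10 call (adjusted p = 0.054). Without IMA10 replicate 3, all 3 passed, at -1.59, -1.94 and -3.83 (adjusted p = 0.00905, 0.00292 and 5.73e-05). The IMA10 call was lost when any 1 of the Con libraries, IMA10 replicate 1 or IMA10 replicate 2 was left out (limma adjusted p = 0.0732 to 0.13).

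Rpl10l was at 158, 169 and 143 FPKM in Con, 104, 57.8 and 50.2 in Sa, 50.4, 69.7 and 31.4 in IMC, and 6.63, 25.1 and 149 in IMA10. The same library, IMA10 replicate 3, was the exception. The differences were -1.21 ± 0.84 (limma adjusted p = 0.21), -1.68 ± 0.84 (adjusted p = 0.0906) and, past the threshold, -2.34 ± 0.84 (adjusted p = 0.0299). Without IMA10 replicate 3 they were -1.21, -1.68 and -3.48 and all passed (adjusted p = 0.0278, 0.00524 and 8.46e-05). The IMA10 call was lost when any 1 of those same 5 libraries was left out (limma adjusted p = 0.061 to 0.101). Values of spermatocyte markers moved in the same libraries: their sum was 6784 to 7050 FPKM in Con, 6179 in IMA10 replicate 3 and 220.8 to 2498 in the other busulfan libraries. Their part in the lower values of Rpl39l and Rpl10l was not tested.

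Rpl36al, an intron-poor autosomal copy of Rpl36a that is not restricted to the testis, had 203.4 to 236.5 in Con and 163.9 to 267.5 after busulfan. Its difference of -0.16 ± 0.18 in Sa did not pass (limma adjusted p = 0.44), and quantile normalization gave it the opposite sign. Rpl22l1, a paralog that can stand in for Rpl22, was at 31.4, 36.7 and 38.4 FPKM in Con and 27.9, 31.6 and 24.5 in Sa (-0.33 ± 0.22, adjusted p = 0.195). Rpl22 itself rose from 27.8, 30.7 and 27.7 FPKM to 61, 55.7 and 55.3 (0.97 ± 0.17, adjusted p = 0.000664), a call that median-of-ratios scaling ended (0.19, adjusted p = 0.249).

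Rps27l, a p53-responsive paralog, was at 80.4, 86 and 82 FPKM in Con and 150, 115 and 117 in Sa, without overlap (0.60 ± 0.15, limma adjusted p = 0.00505), while Rps27 did not pass (-0.24 ± 0.17, adjusted p = 0.22). The sign of Rps27l reversed under median-of-ratios scaling (-0.19) and that of Rps27 under quantile normalization (0.42). Median-of-ratios scaling called Rps27 lower (-1.04, limma adjusted p = 0.00158). Rpl7l1, a relative of Rpl7 known from ribosome assembly, was at 13.7, 14.1 and 13.4 FPKM in Con and 44.4, 44.1 and 46.4 in Sa (1.64 ± 0.22, adjusted p = 0.000352). Rpl7 also rose (0.80 ± 0.13, adjusted p = 0.000448), a rise that median-of-ratios scaling reduced to 0.00 (adjusted p = 0.981). The retrocopy Rpl37rt stayed below 3 FPKM, with 0.64 to 0.87 in Con and 2.46 to 2.96 in Sa (1.08 ± 0.19, adjusted p = 0.000641; 0.0563 with quantile normalization), and 81.2% of the words of its parent Rpl37 are shared with it.

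The muscle paralog Rpl3l was listed below 1 FPKM in every library, at 0.2 to 0.45 in Con and 0.91 to 0.98 in Sa, and was not tested. Its parent Rpl3, itself at 5.73 to 14.3 FPKM and 95.7% shared, did not pass in Sa (-0.24 ± 0.26, limma adjusted p = 0.412). Rpl32l and Rps23rg1 stayed at or below 0.47 and 0.34 FPKM. Together with Rps18 these are the 4 members that were too low to test.

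A share within a pair is free of library scaling, and it was tested between the 3 Con and the 9 busulfan libraries for 7 pairs. By an exact two-sided permutation test, whose smallest p here is 0.00455, 5 of 7 shares differed after Benjamini-Hochberg adjustment over the 7 pairs. The share of Rpl39l in Rpl39l plus Rpl39 was 92.5, 94.3 and 93.8% in Con, 55.5, 44.6 and 38.4% in Sa, 43.2, 43.7 and 18.9% in IMC, and 6.19, 18.8 and 86.6% in IMA10. Every busulfan library was below Con, by 54.0 percentage points on average (exact permutation p = 0.00455, adjusted p = 0.00636).

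The share of Rpl36al was 87.4 to 88.8% in Con and 52.2 to 60% after busulfan except in IMA10 replicate 3 (80.8%), a mean difference of 29.7 points (exact permutation adjusted p = 0.00636). The share of Rpl22l1 was 53.1 to 58% in Con and 23.1 to 46.5% after busulfan (21.3 points, exact permutation adjusted p = 0.00636). With FPKM as deposited, the parent in these 3 pairs was called higher in Sa than in Con and the paralog was not called. Median-of-ratios scaling ended the Rpl22 call. It called 3 of the 7 paralogs and retrocopies tested lower in Sa, against 39.1% of all genes. The calls within a pair thus depended on the scaling, while the share does not. In 2 pairs the share of the paralog went up instead: Rps27l from 8.47 to 9.48% in Con to between 11.2 and 15.9%, and Rpl7l1 from 5.98 to 6.34% to between 8.34 and 14.7% (exact permutation adjusted p = 0.00636 each).

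Rpl10l made up 93.6 to 100% of its pair in Con and 39.8 to 96.2% after busulfan, with overlap through IMA10 replicate 3, and did not pass (24.6 points, exact permutation p = 0.0636, adjusted p = 0.0742). It passed without that library (27.6 points, exact permutation adjusted p = 0.0424). The denominator is the erratic Rpl10 row. Rpl3l, from values below 1 FPKM, did not pass either (3.11 ± 1.39% in Con, 7.09% on average after busulfan, exact permutation p = 0.0864). With the Sa group alone, 3 libraries against 3, the exact permutation test cannot give a p below 0.1, and the shares of all 7 pairs were without overlap at exact permutation p = 0.1.

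**Figure D3:**
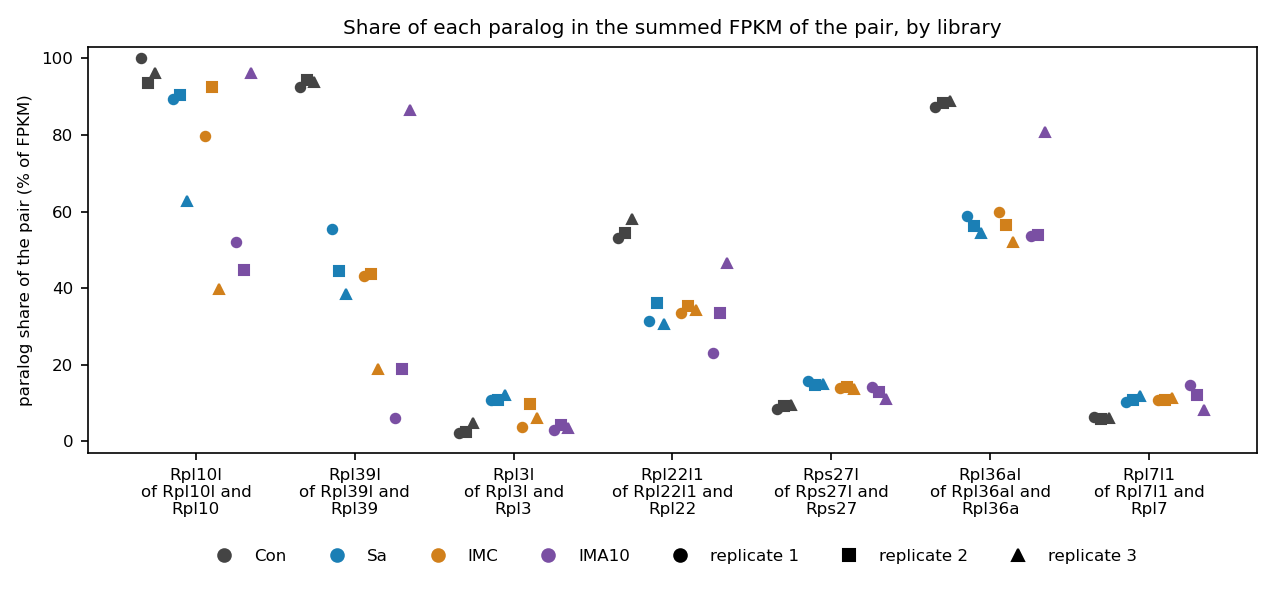
Percent of the summed FPKM of a paralog and its parent that belongs to the paralog (y axis), for 7 pairs and 12 libraries; colours mark the group and symbols the replicate. The Rpl39l, Rpl36al and Rpl22l1 shares of IMA10 replicate 3 (86.6, 80.8 and 46.5%) lie nearer to Con than those of any other busulfan library.

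Among autosomal core genes, the largest differences in Sa were those of Rpl10a, Rpl14, Rps3, Rps6 and Rps3a1. Rpl10a, part of the L1 stalk, was at 94.7, 92 and 72.7 FPKM in Con and 290, 246 and 262 in Sa (1.62 ± 0.19, limma adjusted p = 0.0003). Rpl14 went from 104, 107 and 95.3 FPKM to 327, 294 and 297 (1.58 ± 0.19, adjusted p = 0.000325). Rps3, which lines the messenger RNA entry and shares few words with other genes, went from 45.9, 44.5 and 42.4 FPKM to 128, 118 and 125 (1.46 ± 0.18, adjusted p = 0.00035). Rps3a1 gave 1.41 ± 0.20 (adjusted p = 0.000361). These 4 passed under every scaling. Rps6 gave 1.41 ± 0.33 (adjusted p = 0.00323) but did not pass under either alternative scaling (adjusted p = 0.0721 and 0.0921), and 100% of its words are shared with Rps6-ps4.

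Genes at the lower end were Rps2, Rpl36, Rps20 and Rpl41. Rpl41 was at 1294, 1058 and 1039 FPKM in Sa, below its Con range of 1570 to 1743 (-0.55 ± 0.16, limma adjusted p = 0.0108), with the opposite sign under quantile normalization (0.36). Rps2 was at 17.6, 14.4 and 19.1 FPKM in Con and 10.3, 9.15 and 8.01 in Sa (-0.82 ± 0.28, adjusted p = 0.0215). Rps20 went from 41.3, 37.3 and 37.4 FPKM to 30.7, 23.1 and 21.2 (-0.62 ± 0.25, adjusted p = 0.042). The Rps2 and Rps20 calls were each lost in leave-one-out fits, up to an adjusted p = 0.0716 and 0.134, and 78% and 84.9% of their words are shared with other genes. Rpl36 did not pass (-0.64 ± 0.28, adjusted p = 0.0569).

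Core genes that share few words can be read most directly. Rpl4 rose from 175, 196 and 186 FPKM in Con to 353, 342 and 325 in Sa (0.87 ± 0.12, limma adjusted p = 0.000362), a call that median-of-ratios scaling ended (0.07, adjusted p = 0.615). Rps3 rose and Rpl41 fell, as given above, with the words of Rpl41 counted on its longest annotated coding sequence only. Rpl8 was at 413 to 455 FPKM in Con and 435 to 540 in Sa, with overlap (limma adjusted p = 0.457), but it was called lower with median-of-ratios scaling (-0.66, adjusted p = 0.0118) and higher with quantile normalization (0.66, adjusted p = 0.00279). Of these 4 genes Rps3 alone was called in 1 direction under all 3 scalings.

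**Figure D4:**
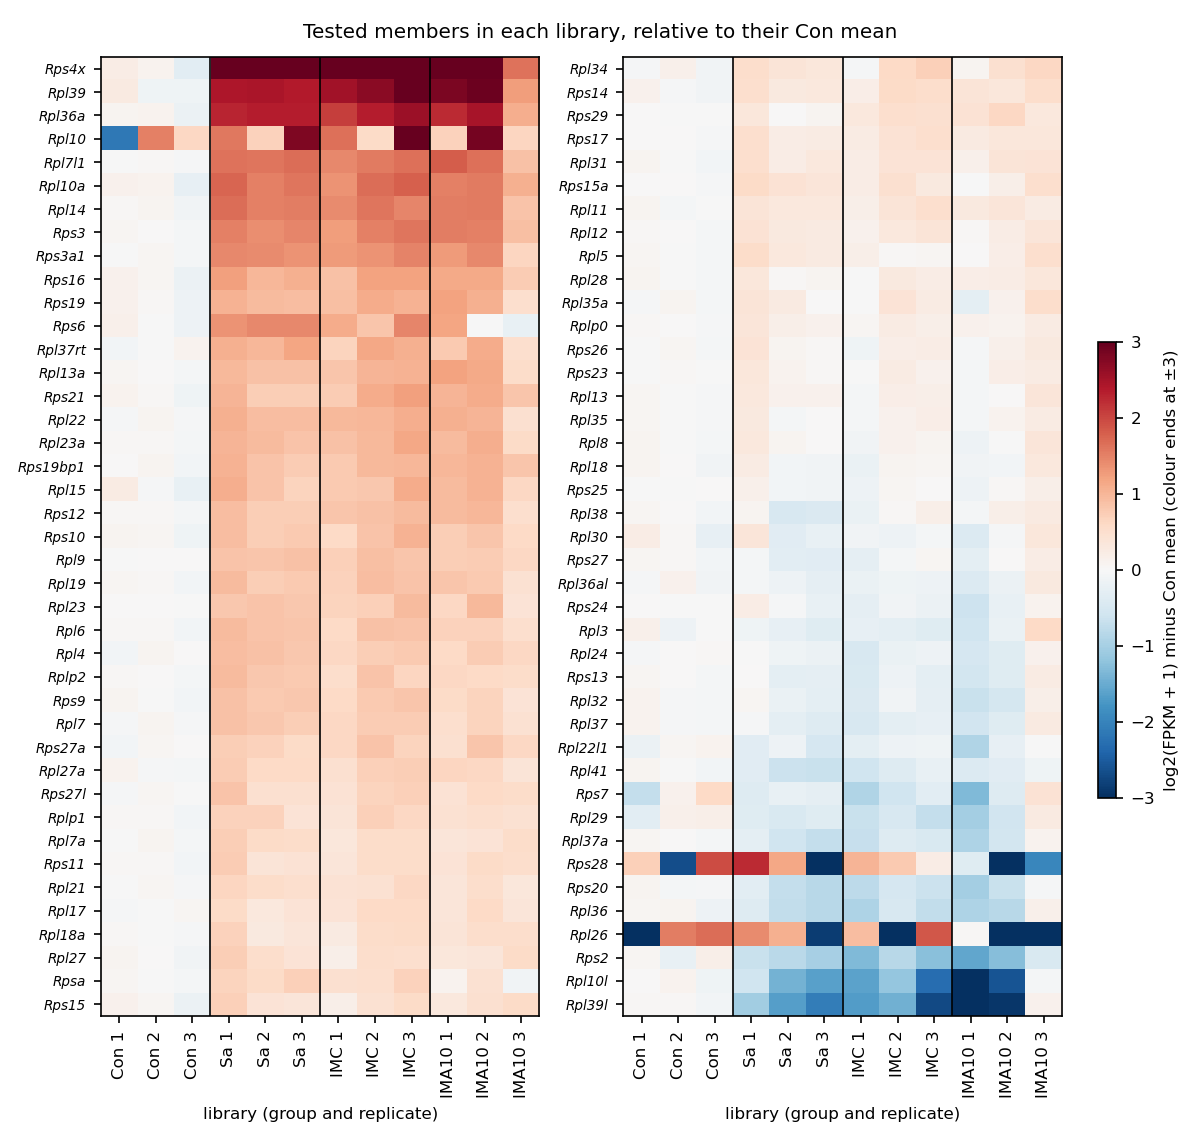
Tested members (rows, ordered by their mean over the busulfan libraries) in each of 12 libraries (columns), as log2(FPKM + 1) minus the Con mean of the member; red is higher and blue lower, with colours capped at 3. The X-linked genes head the left panel, Rpl10l and Rpl39l close the right one, and Rpl26, Rps28 and Rpl10 change from library to library within groups.

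The 2 groups that received microbiota were also compared with Con. In IMC 47 members were higher and 4 lower of 84, against 50.8% and 23.3% of all genes, and the member median was 0.45 against 0.52. Those lower were Rps2 (-1.13 ± 0.28, limma adjusted p = 0.00412), Rpl36 (-0.72 ± 0.28, adjusted p = 0.037), Rps20 (-0.64 ± 0.25, adjusted p = 0.0373) and Rpl41 (-0.40 ± 0.16, adjusted p = 0.0444). Quantile normalization ended the call of Rpl36 (adjusted p = 0.344) and turned the sign of Rpl41 (0.37, adjusted p = 0.118). The IMC calls of Rpl36, Rps20 and Rpl41 were each lost in leave-one-out fits, up to a limma adjusted p = 0.107, 0.102 and 0.141. That of Rps2 held in all of them. In IMA10 42 were higher and 3 lower, against 47.7% and 23.9% of all genes, with a median of 0.42 against 0.41. Those lower were Rpl39l and Rpl10l, given above, and Rps2 (-1.10 ± 0.28, adjusted p = 0.00574). Rps4x, Rpl39 and Rpl36a led both comparisons, and Rpl10a was the highest autosomal core gene in both (1.61 and 1.38). At the lower end of IMA10, Rpl26 and Rps28 stood at -2.33 and -2.24 without passing (adjusted p = 0.256 and 0.228), both on erratic rows. Rpl29 was sixth from the bottom in IMC (-0.63, adjusted p = 0.0723).

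These counts moved with scaling and with IMA10 replicate 3. Median-of-ratios scaling gave 10 higher and 33 lower in IMC, against 39.0% and 40.6% of all genes, and 13 higher and 25 lower in IMA10, against 36.9% and 37.1%. Without IMA10 replicate 3, 50 were higher and 8 lower in Sa, against 55.5% and 30.0% of all genes. For IMC the counts were then 49 and 11, against 53.5% and 32.3%, and for IMA10 45 and 17, against 51.5% and 35.1%. Of the 77 core genes 28 were nearer in that library to the Con mean than to the mean of the other busulfan libraries.

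Whether microbiota changed these genes after busulfan was asked in the comparisons of IMC and IMA10 with Sa and with each other. No member passed, and 0.0% of all genes did in each comparison. At an unadjusted p under 0.05, limma gave 0 members in IMC against Sa, 3 lower in IMA10 against Sa, and 2 lower in IMA10 against IMC. Over all 15472 genes, 107, 891 and 292 were lower at that threshold in these comparisons, and 27, 37 and 36 were higher. The member medians were -0.03, -0.08 and -0.07, against -0.06, -0.20 and -0.14 over all genes. A p that misses the threshold does not show that the groups were alike.

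The smallest p-values in IMC against Sa belonged to Rps29, Rpl38 and Rps21 above and to Rpl5, Rplp2 and Rpl4 below. Rpl5, which carries the 5S RNA into the large subunit, was at 49.7, 42.3 and 41.1 FPKM in Sa and 38.4, 34.6 and 35 in IMC (-0.29 ± 0.16, limma adjusted p = 1.0). Rps29 was at 399, 319 and 331 FPKM in Sa and 392.5, 447 and 437 in IMC (0.29 ± 0.15, adjusted p = 1.0). Rpl39 was the only member whose IMC libraries all lay above Sa (0.38 ± 0.39, adjusted p = 1.0), and Rpl7a, Rpl4, Rpl5 and Rpl29 were those that all lay below. Over all genes 3.32% and 6.02% showed such a gap.

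In IMA10 against Sa, among the smallest p-values were those of Rps6 (-1.09 ± 0.33) and Rpsa (-0.50 ± 0.16) below, and of Rpl38 (0.40 ± 0.19), Rps29 (0.31 ± 0.15) and Rpl41 (0.26 ± 0.16) above (limma adjusted p = 0.651, 0.651, 0.846, 0.847 and 0.977). Rpsa, a small subunit protein also described as a laminin receptor, was at 239, 223 and 248 FPKM in Sa, 210, 214 and 243 in IMC, and 161, 206 and 139 in IMA10, below both other groups. A gap without overlap was found for 9 members below and 0 above, against 7.17% and 0.633% of all genes. Without IMA10 replicate 3, 1 member was higher and 7 were lower than in Sa, against 7.34% and 24.5% of all genes, with Rpsa at -0.37 (adjusted p = 0.0376) and Rps29 at 0.38 (adjusted p = 0.036). The IMA10 group then has 2 libraries.

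In IMA10 against IMC the lowest p-values were those of Rpsa (-0.42 ± 0.16), Rps6 (-0.83 ± 0.33) and Rps28 (-2.91 ± 1.62) below, and of Rpl5 (0.15 ± 0.16), Rpl3 (0.24 ± 0.26) and Rpl38 (0.13 ± 0.19) above, all at a limma adjusted p = 1.0. Rpsa and Rps28 were the members without overlap, both lower in IMA10, as were 2.88% of all genes, while 0.478% were higher without overlap.

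Other parts of the translation apparatus were counted in Sa against Con from lists, beside the same 52.0% higher and 19.2% lower of all genes (37.7% and 39.1% with median-of-ratios scaling). The fusion gene Fau, whose product releases RPS30 from a ubiquitin-like part, did not pass (-0.16 ± 0.14 SE, limma adjusted p = 0.323), but it was called lower with median-of-ratios scaling (-0.96) and higher with quantile normalization (0.33). Of 19 other genes with TOP messages 6 were higher and 4 lower, with a median of -0.16 (2 and 13 with median-of-ratios scaling). Rack1, a scaffold on the small subunit, rose from 85.1 ± 7.85 to 242 ± 4.56 FPKM (SD, n = 3, limma adjusted p = 0.000255), and the elongation factor subunit Eef1d fell from 484 ± 17.2 to 144 ± 17.1 (-1.75 ± 0.17, adjusted p = 0.000119). Eef1a1, the highest of this list, rose from 1530 ± 14.1 to 2090 ± 49.1 (0.45 ± 0.12, adjusted p = 0.00708), but was called lower with median-of-ratios scaling (-0.35, adjusted p = 0.0322).

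Of 48 translation factors tested 13 were higher and 7 lower, with a median of -0.10 (4 and 36, with a median of -0.90, under median-of-ratios scaling). Eif6, which keeps the subunits apart, rose from 26 ± 1.88 to 55.4 ± 5.4 FPKM (1.06 ± 0.14, limma adjusted p = 0.000351), a call that median-of-ratios scaling ended (0.28, adjusted p = 0.0994). Of 40 ribosome biogenesis genes 26 were higher and 1 lower, with a median of 0.84 (16 and 14, with a median of 0.15, under median-of-ratios scaling). Among them Noc2l rose from 4.08 ± 0.448 to 22.6 ± 1.89 FPKM (2.22 ± 0.23, adjusted p = 0.000189) and the RNA polymerase I subunit Polr1b from 1.69 ± 0.444 to 7.86 ± 0.679 (1.73 ± 0.18, adjusted p = 0.000216). The highest, Polr1d, did not pass (adjusted p = 0.143). Of 14 genes of mTOR and TOP control 13 were higher and 1 lower (7 and 1 with median-of-ratios scaling). The lower was Larp1, which binds the TOP motif, from 90.2 ± 2.71 to 55.8 ± 4.88 FPKM (-0.69 ± 0.28, adjusted p = 0.0457), a call that quantile normalization ended (adjusted p = 0.13). Eif4ebp2, an mTOR target, rose from 11.2 ± 1.21 to 40.3 ± 1.59 (1.76 ± 0.27, adjusted p = 0.000389), and the S6 kinase Rps6kb2 from 1.3 ± 0.188 to 10.2 ± 0.136 (2.28 ± 0.37, adjusted p = 0.000482).

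Mitochondrial ribosomal proteins, which serve the separate ribosome of that organelle, had 43 of 77 tested genes higher and 4 lower, with a median of 0.56. Mrpl54 was highest in Con and fell from 205 ± 5.2 to 91.6 ± 18.2 FPKM (-1.17 ± 0.34, limma adjusted p = 0.0101), while Mrpl2 (1.12 ± 0.14, adjusted p = 0.000323) and Mrpl3 (1.63 ± 0.20, adjusted p = 0.000336) rose. With median-of-ratios scaling 19 were higher and 32 lower, so this list depended on scaling as the cytosolic genes did.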

How the data were processed

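RNA from ICR mouse testes was sequenced in 12 libraries, 3 per group. The deposited table gives the authors' FPKM per gene and library, per the file headers; the aligner, counting program, genome build and filters were not given in the sources used here. Depth is unknown. FPKM divides by library total, so a fall of abundant messages raises all others.

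Symbols came from RefSeq (GRCm38.p6), which matched 20141 of 22221 rows. Values were analysed as log2(FPKM + 1), so fold changes of low genes are understated. The 15472 genes that reached 1 FPKM in 3 or more libraries were fitted with limma 3.58.1 (R 4.3.3), with 1 mean per group, a variance trend and Benjamini-Hochberg adjustment over all genes; adjusted p under 0.05 counts as changed. Paralog shares were compared by exact permutation over 220 splits. The procedure was tested on simulated data. Errors are moderated SEs for differences and SDs over 3 libraries for levels.

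Genes were named by rule: paralogs with parents, X-linked members, the 5 highest in Con and Sa, the 6 largest and 6 smallest differences from Con, the 3 smallest p per direction among busulfan groups, members of counts of 10 or fewer, and 3 per related list; a few members of larger counts are also named. The members that share few words were named after their values were seen, as was the class of some retrocopies. The members and lists were chosen with earlier results of these data known. Alternatives were median-of-ratios scaling, quantile normalization, pseudocount 0.1, omitting the filter, raising it to 5 FPKM, fitting the 2 compared groups alone, a replicate block and leaving out each library. Coding sequences came from GENCODE M21. Some genes that the naming rule selects are not reported here.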

Additional observations from a re-analysis of the deposited data

How the results depend on the processing

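Median-of-ratios scaling changed the counts most: 9 members higher and 36 lower in Sa against Con, 10 and 33 in IMC, 13 and 25 in IMA10. Of all genes, 37.7% and 39.1%, 39.0% and 40.6%, and 36.9% and 37.1% were higher and lower in these comparisons. Fits of only the 2 groups compared gave 9 lower in Sa, 11 lower in IMC, and 25 higher and 1 lower in IMA10. The share of all genes in those fits is not given here, so these counts are not read as a result about the members. Leaving out each library in turn, the number lower ranged from 1 to 8 in Sa, 1 to 11 in IMC and 1 to 17 in IMA10. Each was highest without IMA10 replicate 3, where 30.0%, 32.3% and 35.1% of all genes were lower. In IMA10 against Sa the counts ranged from 0 to 1 higher and 0 to 7 lower. The largest came without the same library, beside 7.34% and 24.5% of all genes. With the replicate number as a block, 1 member, Rps2, was lower in IMC and in IMA10 against Con, beside 2917 and 2972 of all 15472 genes. The numbers do not pair the samples: same-numbered libraries correlated at -0.77 to 0.55 in their deviations, 5 of 18 pairs exceeded 0.1, and 1 of 12 libraries was closest to its own number.

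Of the 84 members tested in Sa against Con, 31 had the other sign with median-of-ratios scaling and 14 with quantile normalization. Among the members named with values, median-of-ratios scaling reversed Rps27l in Sa (-0.19), and quantile normalization reversed Rpl36al (0.31 in Sa, 0.26 in IMC and 0.23 in IMA10 against Con), Rpl41 (0.36, 0.37 and 0.25, and -0.11 in IMA10 against Sa) and Rps27 (0.42 in Sa). When each library was left out, Rpl36al in IMA10 against Con ranged from -0.29 to 0.062, and Rpl3 in IMA10 against IMC from -0.10 to 0.50. The cause of these changes was not tested.

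Paralog shares kept their direction. With Con against Sa only, where no p below 0.1 is possible, the differences were 47.3 points for Rpl39l, 22.4 for Rpl22l1, 31.7 for Rpl36al, -6.14 for Rps27l and -4.81 for Rpl7l1. Rpl10l passed as a percent of all members' FPKM (0.528 points) and ranged from 20.6 to 27.6 points when each library was left out. Depth is unknown, and low rows limit Rpl10, Rpl3l and Rps18.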
